A study of Mus musculus with 10 samples.

Results

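The data described here are the transcriptomes of mouse embryos at the 8-cell stage after knockdown of Tfap2c, set against control embryos of the same stage. All embryos carried the BDF1 genotype, a hybrid background. The knockdown group consisted of 2 libraries named siTfap2c, whose treatment is given as Tfap2c KD, and the comparison group of 2 libraries with the treatment Control. The reagent behind the knockdown, what the control embryos received and whether the 2 libraries of a group came from separate pools of embryos are not given in the sources used here, so a p-value covers no more than the spread between libraries, which may be technical. The series holds 6 further libraries of the same stage and genotype: 2 with Klf5 knockdown (siKlf5) and 2 each of the knockouts Arpc1bE_CdxE1_KO and CdxE2_KO, whose treatment is given as Tfap2c motif KO. Of 24421 genes in the deposited tables, 10228 reached at least 1 linear unit in at least 2 of the 4 control and knockdown libraries, and these were tested.

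Tfap2c encodes AP-2 gamma, one of the AP-2 transcription factors, which bind GC-rich palindromic DNA as dimers. The oocyte supplies it, the cleavage-stage embryo transcribes it, and it is best known for its part in the trophectoderm, the outer epithelium of the blastocyst, and later in the placenta. At the 8-cell stage the blastomeres compact against each other and form an apical domain, and the choice between outer trophectoderm and inner cell mass follows. The question the comparison addresses is which transcripts of the embryo at this stage depend on Tfap2c.

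Values are gene abundances on the log2(value + 1) scale. The text also gives them back-transformed to linear units. It compares them between libraries for 1 gene at a time, because the sources used here do not say whether the unit is per length. Where sums over genes are given, the genes with the highest values weigh most in them. Read counts were not analysed here, so sequencing depth is unknown. The linear values of the 2 control libraries added up to 389715 and 390386 units and those of the 2 Tfap2c knockdown libraries to 388454 and 389523, while the motif knockouts reached 478651 to 498621. Between 9873 and 9917 genes reached 1 unit in each of the 4 libraries. Markers of the 8-cell embryo and morula were present at 1 unit or more in all 4 libraries (8 of 8 markers). Of cumulus and granulosa cells 0 of 10 markers reached 1 unit, and of fibroblasts 0 of 5. Of 5 blood markers only Cd74 reached 1 unit, at 1.07 and 1.54 units in control and 0.71 and 1.99 in the knockdown. The 10 oocyte and polar body markers added up to 45.5 and 47.9 units in control and 51.5 and 43.2 in the knockdown. An exact 0 can be a failed estimate, since Gapdh, which cells express throughout, stood at 0 to 0.76 log2 units in these 4 libraries. In a pool of whole embryos a lower value can come from fewer cells that hold the transcript or from less of it in each, and the data cannot tell these apart.

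By limma's moderated test 2793 of 10228 genes (27.3%) differed between the groups at an adjusted p under 0.05, with 1471 higher (14.4%) and 1322 lower (12.9%) in the knockdown. These shares are the background for every count below. The falls were larger than the rises. At 2-fold or more 553 genes were called (5.41%), of which 377 were lower (3.69%) and 176 higher (1.72%). At 4-fold or more, 54 were lower and 3 higher, and at 8-fold or more, 11 were lower and 1 higher. The 377 genes at least 2-fold lower held 3.59% and 3.54% of the summed units of the control libraries and 1.31% and 1.32% of those of the knockdown. The 176 genes at least 2-fold higher went from 0.368% and 0.383% to 1.02% and 0.951%. Genes with non-overlapping libraries were far more numerous than calls, at 38.1% higher and 29.4% lower. The number of calls depends on having both libraries. Leaving out the first or the second Tfap2c knockdown library gave 1644 and 1823 calls, and leaving out the first or the second control library 1700 and 1824. In each of these 4 fits more genes were lower than higher, and with libraries centred on their medians 1309 were higher and 1416 lower, so the side with more genes is not settled. A call is said below to hold when it stayed under the threshold in all 4 of these fits, which was so for 733 of the 1322 lower genes (7.17% of all genes tested) and 579 of the 1471 higher genes (5.66%).

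**Figure D1:**
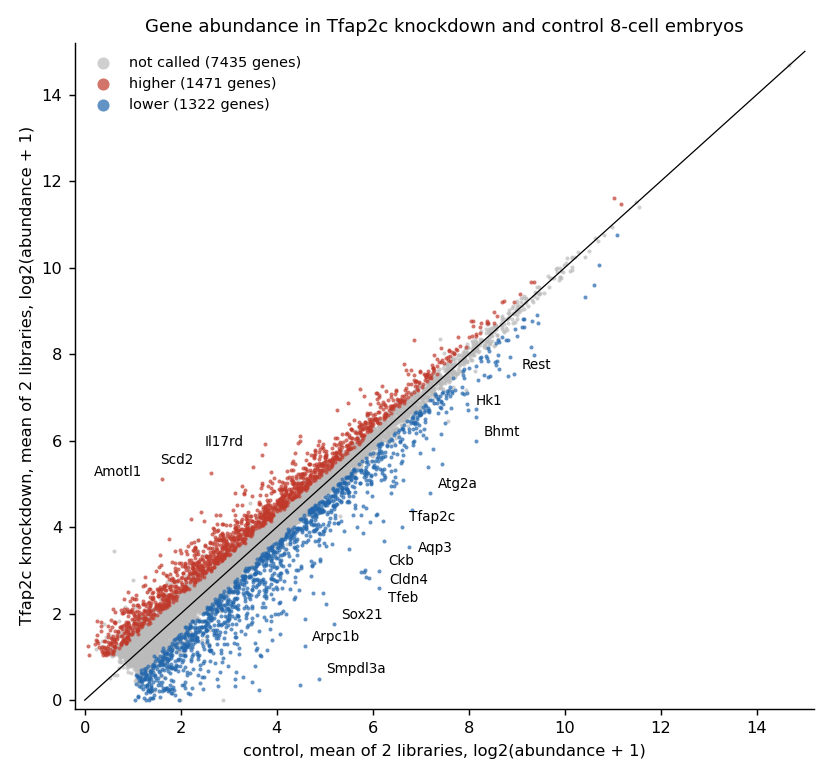
Mean abundance of 10228 genes in control (x axis) and Tfap2c knockdown (y axis) 8-cell embryos, both as log2(abundance + 1) over 2 libraries, with the line of equal abundance. Points for 1471 genes called higher are red, for 1322 called lower blue and for genes not called grey, and the blue points reach farther from the line than the red, with Smpdl3a and Amotl1 at the extremes among labelled genes.

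The targeted gene was measured first. Tfap2c (chromosome 2, 172549593 to 172558622, plus strand, mm10) stood at 96.5 and 96.9 units in control and at 14.3 and 16 in the knockdown, which left 15.7% of the control mean. Its log2 fold change was -2.60 (SE 0.09, adjusted p = 1.3e-07). In the Klf5 knockdown and in both motif knockouts its mean stayed between 6.54 and 6.58 log2 units, next to 6.61 in control. Of 14 AP-2 factors and coregulators listed, 8 were tested, 1 was called higher and 3 lower. The lower count includes Tfap2c itself, the target of the knockdown, beside Kctd15 and Kdm5b (-0.48). Kctd15, a BTB-domain protein known to inhibit AP-2 factors, fell from 4.99 and 5.27 units to 1.14 and 1.3 (log2 fold change -1.47, adjusted p = 0.00012). Cited2, a coactivator of AP-2 factors, rose from 9.86 and 6.51 units to 19.7 and 24.3 (1.34, adjusted p = 0.00099). Its relative Cited1 stood at 50.7 and 47.9 units in control and 56.8 and 61.3 in the knockdown, a difference that missed the threshold (0.25, adjusted p = 0.052). Tfap2e, the other AP-2 paralog that passed the filter, stood at 1.27 to 2.05 units in all 4 libraries, and its groups overlapped (adjusted p = 0.49).

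The 11 largest falls described here kept between 1.51% and 12.5% of their control level in linear units. Libraries that do not overlap between the groups were a condition for naming them. They were called in the fits without each library as well. Smpdl3a, a lysosomal phosphodiesterase related to acid sphingomyelinase, stood at 31.5 and 25.2 units in control and at 0.223 and 0.633 in the knockdown (log2 fold change -4.37, SE 0.19, adjusted p = 7.1e-07). Ly6a, the GPI-anchored surface protein Sca-1, stood at 12.6 and 10.4 units and at 0.0776 and 0.297 (-3.40, adjusted p = 1.6e-06). Both were thus near 0 in either knockdown library, where the added constant of 1 understates the fall. Dap, a death-associated protein that restrains autophagy, went from 8.22 and 12.6 units to 0.191 and 0.491 (-3.07).

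Transcription factors were among these falls. Tfeb, which drives lysosomal and autophagy genes, stood at 64.4 and 74.5 units in control and at 4.46 and 5.70 in the knockdown (-3.54, SE 0.11, adjusted p = 1.2e-07). Sox21, an SRY-related factor whose transcript is known to vary between blastomeres of the early embryo, went from 33.4 and 37.7 units to 1.7 and 3.23 (-3.43, adjusted p = 2.9e-06). In the Klf5 knockdown Tfeb averaged 5.89 log2 units and Sox21 5.28, next to 6.13 and 5.19 in control.

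The rest of these genes act at the cell surface, in the actin cortex or in energy supply. Aqp3, a channel for water and glycerol, went from 112 and 103 units to 11.3 and 10.1 (-3.21, adjusted p = 1.2e-07). Cldn4, a claudin of tight junctions, went from 59.7 and 60.6 units to 4.89 and 7.43 (-3.12). Ckb, the brain-type creatine kinase, which buffers ATP, went from 69.7 and 68.4 units to 6.88 and 7.04 (-3.14). In all of them the 2 libraries of a group lay close together and far from the other group. Arpc1b, a subunit of the Arp2/3 complex that starts branched actin filaments, fell from 25.2 and 21.3 units to 1.36 and 1.40 (-3.34). Lasp1, an actin-binding adaptor, went from 60.5 and 52.8 units to 6.10 and 6.21 (-3.01). Arhgdia, a GDP dissociation inhibitor, went from 55.0 and 56.4 units to 5.39 and 8.54 (-2.86, adjusted p = 4.2e-06).

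Fewer genes rose by a comparable factor. Amotl1, an angiomotin that binds Yap and junctional actin, stood at 2.67 and 1.53 units in control and at 30.6 and 36.8 in the knockdown (log2 fold change 3.50, SE 0.18, adjusted p = 1.6e-06). Scd2, a desaturase that makes monounsaturated fatty acids, went from 5.03 and 5.37 units to 38.5 and 35.3 (2.61, adjusted p = 7.4e-06). B4galt6, which makes lactosylceramide, the first step into complex glycosphingolipids, went from 3.55 and 3.69 units to 17.2 in both knockdown libraries (1.98). These 3 genes had low but measurable levels in control, and the knockdown libraries agreed closely with each other.

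Il17rd, a membrane inhibitor of FGF signalling, rose from 11.9 and 12.1 units to 49.9 and 49.3 (1.96, adjusted p = 2.4e-06). Scarf1, a scavenger receptor, rose from 10.8 and 10.0 units to 42.1 and 39.3 (1.87). Rbsn, rabenosyn-5, an effector of early endosome fusion, rose from 19.9 and 22.9 units to 70.6 and 64.4 (1.61). As with the falls, non-overlapping groups were a condition for naming these 3. Uchl1, a deubiquitinase abundant in oocytes and neurons, went from 7.68 and 7.77 units to 31.0 and 22.4 (1.65, adjusted p = 0.0017). Ctgf, a secreted matricellular protein and a classical target of Yap and Tead, went from 6.51 and 4.98 units to 18.4 and 18.3 (1.53). Cdkn1a and Bbc3, both p53 targets, also belong here and are described with that list. Aaed1, a thioredoxin-like protein, went from 19.4 and 23.3 units to 65.2 and 61.3 (1.53, adjusted p = 0.0080), but it missed the threshold when the first Tfap2c knockdown library was left out (adjusted p = 0.051), and likewise for the first control library (adjusted p = 0.057).

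**Figure D2:**
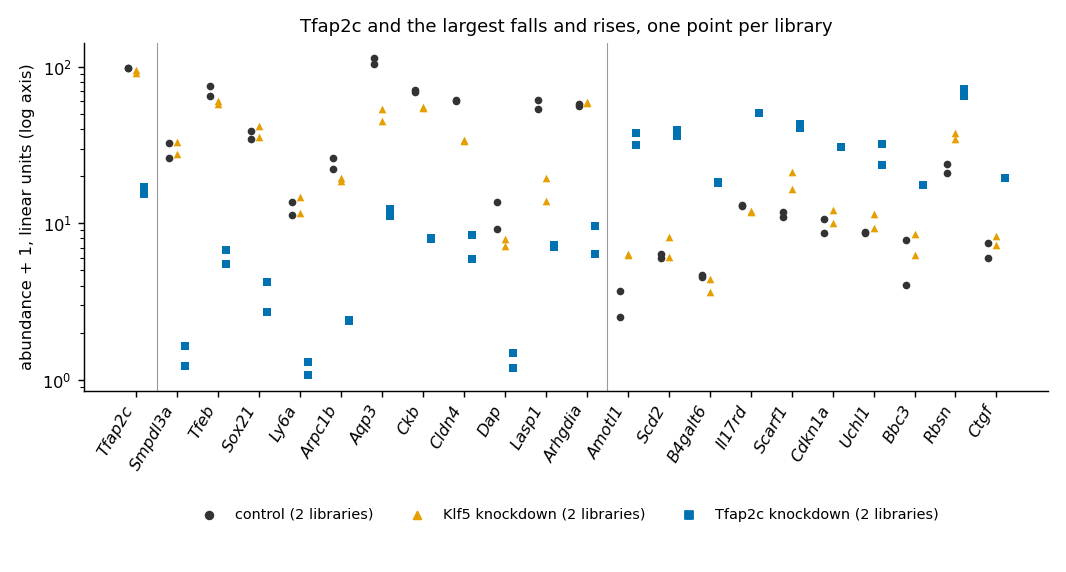
Abundance + 1 in linear units (log axis) of Tfap2c, of 11 genes among the largest falls named and of 10 among the largest rises named, with 1 point per library for control (circles), Klf5 knockdown (triangles) and Tfap2c knockdown (squares). For each gene the squares are separated from the circles, which the choice of genes required. For Sox21, Tfeb, Smpdl3a, Ly6a and Arhgdia the triangles lie beside the circles.

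The recognition sequence of AP-2 factors was looked for in the promoters of these genes to show where it occurs. The motif searched was GCCNNNGGC, which reads the same on both strands, in RefSeq promoter windows of 300 bases on GRCm38.p6, from 250 bases before to 50 bases after the start. The windows shown carry the match in capitals. The first 2 belong to genes that fell, Sox21 (chr14:118237185-118237253, minus strand) and Ckb (chr12:111672542-111672588, minus strand), and the others to Bbc3, which rose (chr7:16309479-16309547, chr7:16310133-16310201 and chr7:16310226-16310294, plus strand).
Sox21: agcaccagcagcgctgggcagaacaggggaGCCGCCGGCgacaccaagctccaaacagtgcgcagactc
Ckb: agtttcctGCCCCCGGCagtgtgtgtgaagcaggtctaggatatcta
Bbc3 window 1: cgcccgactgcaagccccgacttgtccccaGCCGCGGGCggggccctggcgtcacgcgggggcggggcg
Bbc3 window 2: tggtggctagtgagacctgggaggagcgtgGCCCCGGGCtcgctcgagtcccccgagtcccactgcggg
Bbc3 window 3: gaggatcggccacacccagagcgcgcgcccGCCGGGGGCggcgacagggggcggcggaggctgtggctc

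The match in the Sox21 promoter lay 193 to 185 bases before the start, inside an exon of Gm4675, a lincRNA that GENCODE M21 places on the opposite strand. Whether reads were counted by strand is not given in the sources used here, so reads of Sox21 and of that lincRNA cannot be told apart where they overlap. The match of Ckb lay 242 to 234 bases before the start, outside any annotated gene, and those of Bbc3 lay before 3 alternative starts in introns of longer Bbc3 models. Among the other falls described, Arhgdia had a match in 1 of its 2 promoters, and Dap and Lasp1 had 1 match each, whose windows are not shown. No match was found in the windows of Aqp3, Arpc1b, Cldn4, Tfeb, Amotl1, Cdkn1a, Il17rd, Rbsn or Uchl1, which says only that these letters are not in those windows. In the motif knockouts Arpc1b averaged 3.29 log2 units (Arpc1bE_CdxE1_KO) and 4.75 (CdxE2_KO), next to 4.59 in control. It averaged 1.25 in the Tfap2c knockdown, and the differences of the motif knockouts from control were not tested here. Smpdl3a, Ly6a, Scd2, B4galt6, Scarf1, Ctgf and Aaed1 had no promoter window in the source used here and were not searched. Both falls and rises therefore occur with and without the motif.

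Over the 6110 tested genes with a single promoter in the RefSeq table, the shares with the motif stood close together, and they are given without a test. It was present in 214 of 769 promoters of lower genes (27.8%), 239 of 922 of higher genes (25.9%) and 1124 of 4419 of genes that were not called (25.4%). For genes at least 2-fold lower it was present in 55 of 218 (25.2%). The share in all 22862 single promoters of the table, tested or not, was 16.2%. The share with the motif rose with base composition. In the top quintile of GC content 44.4% of lower, 44.2% of higher and 48.0% of uncalled genes had it, and in the lowest quintile 6.99%, 9.89% and 8.21%. With the same half-sites 1 base farther apart the shares were 28.0% of lower, 23.9% of higher and 24.3% of uncalled genes. At this spacing 65 of 218 genes at least 2-fold lower had a match (29.8%), and 27 of 104 at least 2-fold higher (26.0%). A match is a string of letters and not a bound site, and distal elements were not searched.

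**Figure D3:**
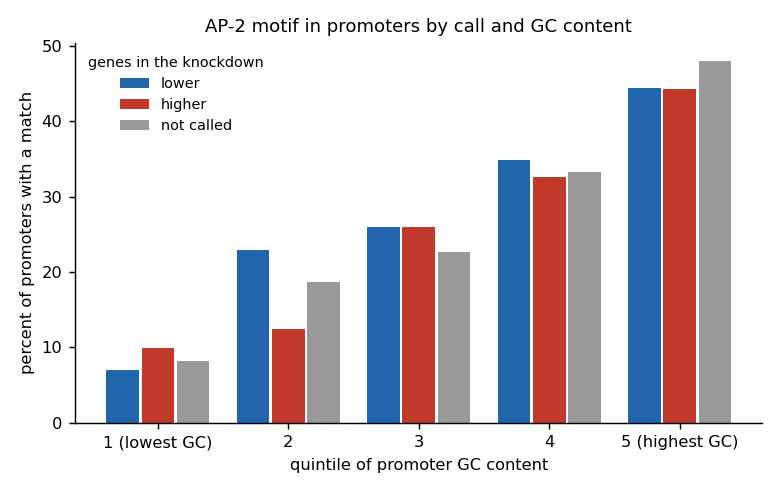
Share of promoters with at least 1 match to GCCNNNGGC (y axis, percent) for genes called lower, higher or not called in the Tfap2c knockdown, in 5 quintiles of promoter GC content (x axis). The bars rise with GC content from 6.99% to 9.89% in the lowest quintile to 44.2% to 48.0% in the highest, and within a quintile the 3 groups stand close to each other, except for the second, with 22.9% of lower and 12.4% of higher genes.

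The outer lineage was examined with 29 genes of the trophectoderm program, of which 16 were tested. Of these 10 were lower (62.5%, against 12.9% of all genes tested) and 1 higher, with a median log2 fold change of -0.63 against 0.04 over all genes, and 7 of the 10 calls held. The count includes Tfap2c itself. Besides Cldn4, Fgfr2, the FGF receptor of the trophoblast, went from 14.2 and 13.4 units to 2.30 and 2.86 (-2.05, adjusted p = 4.6e-06). Tead4, the DNA-binding partner of Yap that starts this program, went from 91.5 and 87.1 units to 48.2 and 53.5 (-0.80, adjusted p = 0.00015). Gata3, a trophectoderm factor that acts beside Cdx2, went from 3.57 and 3.46 units to 1.45 and 1.25 (-0.94). Cdx2 was itself low at this stage, at 4.10 and 4.57 units in control and 0.174 and 0.480 in the knockdown (-2.02, adjusted p = 0.00023). Not all of the program followed: the keratin Krt8 stood at 8.12 and 5.77 units in control and 5.70 and 6.36 in the knockdown, with overlapping groups (adjusted p = 0.65). Over 7 trophectoderm markers the summed level was 115 and 107 units in control and 59.2 and 65.6 in the knockdown. Tead4 alone held 91.5 and 87.1 of these units in control and 48.2 and 53.5 in the knockdown, so the sum mostly repeats that gene.

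Genes of the inner lineage and of pluripotency fell as well. Of 23 tested members 14 were lower (60.9%) and 2 higher, with a median of -0.43, and 8 of the 14 lower calls and both higher calls held. Pou5f1, which encodes Oct4, stood at 88.5 and 89.3 units in control and at 28.7 and 34.3 in the knockdown (-1.47, adjusted p = 7.5e-06). Tdgf1, the Nodal coreceptor Cripto, went from 60.7 and 52.2 units to 7.25 and 6.96 (-2.82, adjusted p = 2.4e-07). Tfcp2l1, a factor of naive pluripotency, went from 17.5 and 13.1 units to 2.78 and 3.23 (-2.02). Klf4, a Krüppel-like factor of the same network, went from 72.1 and 70.5 units to 30.1 and 35.8 (-1.09). Dppa3, a maternal factor that protects methylation of the zygote's genome, went from 379 and 371 units to 233 and 215 (-0.74). For all 5, non-overlapping groups were a condition for being named. The 2 members that rose, named after their values were seen, were Klf17, a Krüppel-like factor of the early embryo, from 92.0 and 110 units to 241 and 197 (1.11, adjusted p = 0.00017), and Fgf4, the ligand of Fgfr2, from 5.04 and 6.39 to 13.2 and 11.4 (0.99, adjusted p = 0.0015). Of 8 markers of the 8-cell embryo and morula, 5 were lower, among them Pou5f1, Tdgf1 and Dppa3, and 2 higher, Klf17 and Fgf4. Their summed level, in which these opposite moves are added, was 708 and 705 units in control and 573 and 522 in the knockdown.

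Other families of transcription factors were mixed. Of 6 tested Sox genes 3 fell and 0 rose, and these 3 calls held: Sox21, Sox13 (72 and 77.7 units to 11.4 and 12.3, log2 fold change -2.56) and Sox15 (124 and 148 units to 83.0 and 89.2, -0.65). Of 14 tested GATA and ETS factors 4 fell and 3 rose. Gata6, the primitive endoderm factor, went from 116 and 112 units to 73.0 and 78.3 (-0.58), and Erf, an ETS repressor, from 8.94 and 10.3 to 2.68 and 2 (-1.68). Of 23 tested nuclear receptors and their coactivators 7 fell and 4 rose, among them Nr5a2, a receptor active from the 2-cell stage on, which went from 560 and 566 units to 408 and 384 (-0.51). Of 23 tested bHLH, Id and MiT-TFE factors 4 fell and 1 rose. Tfe3, the paralog of Tfeb, went from 15.6 and 15.9 units to 11.3 and 10.8 (-0.48), a far smaller difference than that of Tfeb. Of 12 tested immediate early genes, which respond to signals within minutes, 8 were lower and 1 higher (median -0.62), and 5 of the 8 calls held. Klf10 went from 8.03 and 6.4 units to 1.19 and 1.17 (-1.91), and Ier2 from 5.54 and 5.37 to 1.53 and 2.45 (-1.13).

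Genes of the actin cortex fell more often than genes at large. Of 30 tested genes for actin filament binding and cross-linking 15 were lower and 2 higher, with a median of -0.32, and 11 of the 15 calls held. Actb, cytoplasmic beta-actin, went from 312 and 321 units to 182 and 183 (-0.79, adjusted p = 5.9e-05). Tagln2, a transgelin that bundles filaments, went from 14.2 and 9.67 units to 0.927 and 1.09 (-2.67). Actn1, an alpha-actinin cross-linker, went from 31.1 and 30.7 units to 14.4 and 15.1 (-1.02). Separation of the control from the knockdown libraries was a condition for naming each of them. Of 19 tested myosins and contractility genes 5 were lower and 0 higher. Myh10, the nonmuscle myosin IIB heavy chain, went from 48.5 and 48.8 units to 20.9 and 22.3 (-1.14). Anln, anillin of the contractile ring, went from 55.8 and 58.4 units to 40.4 and 41.1 (-0.48).

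Within the Arp2/3 complex and its nucleation factors the fall was not general. Of 23 tested members 2 were lower and 3 higher, and the median was 0.15. Besides Arpc1b, the subunit Arpc5 went from 13.9 and 13.4 units to 7.86 and 8.64 (-0.67, adjusted p = 0.0020). Cyfip2, a subunit of the WAVE complex that activates Arp2/3, rose from 1.05 and 1.08 units to 2.78 and 2.38 (0.79).

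Adhesion and surface genes gave a similar picture. Of 17 tested tetraspanins, annexins and S100 proteins 9 were lower (52.9%) and 0 higher, with a median of -0.49, and 6 of the 9 calls held. S100a11, a calcium-binding partner of annexins, went from 11.8 and 7.04 units to 1.76 and 2.02 (-1.81), and Anxa11 from 2.48 and 3.19 units to 0.732 and 0.719 (-1.15). Of 18 tested integrins and matrix receptors 8 were lower and 2 higher, with 6 of the 8 calls holding. Itgb5, an integrin beta subunit, went from 53.6 and 55.5 units to 22.3 and 20.5 (-1.31), and Vcl, vinculin, which ties integrins and cadherins to actin, from 6.64 and 6.88 to 2.50 and 2.74 (-1.10). Of 14 tested claudin and tight junction genes 4 were lower and 2 higher, with Cgn, cingulin, at 16.6 and 16.4 units in control and 10.1 and 11 in the knockdown (-0.60). Of 19 tested genes for apical polarity and ERM proteins 5 were lower and 1 higher, and the median was -0.03. Pard6b, the Par6 protein of the apical domain, went from 5.57 and 4.68 units to 1.95 and 2.53 (-0.92), and Cdc42ep4, a Cdc42 effector, from 8.87 and 9.46 to 3.00 and 2.49 (-1.44). Plec, plectin, a linker of keratin filaments, went from 39.8 and 42.7 units to 13.3 and 14.8 (-1.49) in a list of 6 tested keratin and desmosome genes with 3 lower and 2 higher.

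Signalling genes moved in both directions. Among 25 tested genes of angiomotins, Hippo kinases and Tead factors 6 were higher and 3 lower. The angiomotins parted: Amot fell from 30.5 and 30.3 units to 4.52 and 4.66 (log2 fold change -2.49, adjusted p = 1.6e-06), while Amotl1 rose by 3.50. In the FGF receptor and MAPK feedback list 9 of 30 tested genes were higher and 8 lower, with 5 and 6 of these calls holding. The inhibitors Il17rd and Dusp16, a phosphatase of MAP kinases (9.01 and 8.98 units to 26.0 and 26.3, 1.44), rose. Fgfr2 and the adaptor Grb7 (13.5 and 9.95 units to 0.768 and 1.41, -2.61) fell. The Wnt and Notch lists had more calls lower than higher, and the Nodal list was nearly even in calls. Their medians were 0.06 (Wnt), -0.0 (Notch) and -0.16 (Nodal), next to 0.04 over all genes. The Wnt and Notch lists as a whole thus stayed near the median of all genes. In the Wnt list 8 of 24 were lower and 2 higher, with Znrf3, a ligase that removes Wnt receptors, at 15.9 and 14.9 units in control and 6.53 and 6.38 in the knockdown (-1.13). In the Notch list 5 of 16 were lower and 2 higher, and Hes1, the repressor downstream of Notch, went from 8.89 and 8.83 units to 0.615 and 0.316 (-2.76, adjusted p = 1.0e-05). In the Nodal, TGF-beta and BMP list 6 of 22 were lower and 5 higher, with 3 and 1 of these calls holding. Smad7, an inhibitor of these receptors, rose from 18.1 and 19.4 units to 33.5 and 32.7 (0.79), while Tdgf1 fell. In the insulin, PI3K and mTOR list 5 of 30 rose and 5 fell. Akt1 went from 11.8 and 12.3 units to 3.45 and 4.07 (-1.46), and Ddit4, an inhibitor of mTORC1 induced by stress, from 11.7 and 12.3 to 29.7 and 31.4 (1.28).

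Since Tfeb was among the largest falls, the compartments its protein is known to regulate are given here. Of 31 tested lysosomal hydrolases and cofactors 12 were lower (38.7%) and 6 higher, with a median of -0.21, and 10 of the 12 lower calls and 4 of the 6 higher calls held. Psap, the precursor of saposins, went from 344 and 332 units to 171 and 183 (-0.93, adjusted p = 3.8e-05). Ctsh, cathepsin H, went from 20.4 and 21.5 units to 6.99 and 6.96 (-1.46), and Gaa, acid alpha-glucosidase, from 28.6 and 29.0 to 13.5 and 13 (-1.07). The lysosomal membrane and proton pump differed: 4 of 38 tested genes were lower and 2 higher, under the shares of all genes, with a median of -0.01. Lamp2, a membrane glycoprotein, rose there from 70.3 and 66.2 units to 120 and 113 (0.76), and Npc2, which hands on cholesterol, fell from 83.8 and 80.9 to 57.1 and 58.9 (-0.50).

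Of 34 tested autophagy genes 6 were lower and 2 higher, and 4 of the 6 calls held. Atg2a, a lipid transfer protein of the growing autophagosome, went from 146 units in both control libraries to 27.7 and 25.1 (-2.42, adjusted p = 1.6e-06). Ulk1, the kinase that starts autophagy, went from 275 and 289 units to 106 and 105 (-1.41, adjusted p = 4.2e-06). These 2 genes, unlike the median of the list (-0.04), stood far from control. Of 31 tested syntaxins, VAMPs and SNAPs, the membrane fusion proteins, 6 were lower and 1 higher, and all 6 lower calls held. Stx3, an apical syntaxin, went from 6.67 and 7.52 units to 3.57 and 2.47 (-1.02). Rab GTPases went the other way in number, with 8 of 35 higher and 4 lower. Rab31 rose from 4.02 and 5.36 units to 10.1 and 11.6 (1.06), and Rab5a, of early endosomes, fell from 111 and 104 to 73.0 and 73.1 (-0.55).

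In glucose metabolism 7 of 23 tested genes were lower (30.4%) and 2 higher, and 6 of the 7 calls held. Hk1, a hexokinase, went from 240 and 266 units to 89.1 and 120 (-1.28), its relative Hk2 from 16 and 16.7 to 4.75 and 5.37 (-1.52), and Pfkfb2, which makes the activator of phosphofructokinase, from 13.5 and 12.4 to 1.21 and 1.26 (-2.64, adjusted p = 1.2e-06). Pygl, a glycogen phosphorylase, went from 4.51 and 5.70 units to 1.05 and 1.36 (-1.47). The median of the list was -0.02. Of 13 tested creatine, adenylate and related kinases 3 were lower and 1 higher. With Ckb fell the mitochondrial Ckmt1 (54.3 and 51.8 units to 17.6 and 19.3, -1.48) and Ak4, a mitochondrial adenylate kinase (84.3 and 81.6 units to 27 and 26.3, -1.60). Of 81 tested nuclear genes of oxidative phosphorylation 4 were lower and 5 higher, under the shares of all genes.

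One-carbon metabolism had 8 of 27 tested genes lower and 5 higher, with 5 and 2 of these calls holding. Bhmt, which remakes methionine from betaine, went from 297 and 275 units to 56.7 and 67.9 (-2.19, adjusted p = 3.0e-06). Tyms, thymidylate synthase, went from 28.6 and 27.5 units to 11.8 and 12 (-1.17), and Aldh1l1, a folate dehydrogenase, from 3.09 and 3.03 to 0.393 and 0.181 (-1.66). In purine and pyrimidine synthesis 4 of 30 were lower and 2 higher, with Atic, the last enzyme of IMP synthesis, at 49.3 and 50.8 units in control and 14.8 and 15.3 in the knockdown (-1.67, adjusted p = 1.3e-06). Redox enzymes were split, with 5 of 28 lower and 4 higher. Gsto1, a glutathione transferase, fell from 23.8 and 22.1 units to 2.20 and 3.25 (-2.70), Gpx1, a glutathione peroxidase, from 65.3 and 60.2 to 24.5 and 26.1 (-1.28), and Gclc, which limits glutathione synthesis, rose from 3.52 and 4 to 10.5 and 9.81 (1.23).

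Lipid synthesis contained rises. Of 19 tested genes of sterol synthesis 7 were higher (36.8%, against 14.4% of all genes) and 2 lower, with a median of 0.28, and 5 of the 7 calls held. Fdft1, squalene synthase, went from 106 in both control libraries to 184 and 187 (0.81, adjusted p = 2.7e-05) and Fdps, farnesyl diphosphate synthase, from 19.8 and 17.7 to 37.4 and 40 (1.01). Of 23 tested genes for fatty acid synthesis, desaturation and elongation 8 were higher and 4 lower. Fads1, a delta-5 desaturase, rose with Scd2, from 4.60 and 3.61 units to 11.9 and 12 (1.35), and Elovl6, an elongase, fell from 59.3 and 54.9 to 32.6 and 38.1 (-0.68). Sphingolipid synthesis had 7 of 25 higher and 2 lower, with 3 of the 7 calls holding. Phospholipid synthesis and remodelling went the other way, with 8 of 31 lower and 4 higher, where Mboat2, a lysophospholipid acyltransferase, fell from 13.3 and 14.7 units to 1.81 and 1.40 (-2.53, adjusted p = 2.9e-06) and Agpat2, which makes phosphatidic acid, from 17.9 and 19 to 4.73 and 5.13 (-1.71). Fatty acid oxidation and lipid droplets had 6 of 29 lower and 2 higher. Fabp5, a fatty acid carrier, fell there from 16.9 and 16.1 units to 4.09 and 2.44 (-2.07), and Acadl, a dehydrogenase of beta-oxidation, from 21 and 18.7 to 5.39 and 6.01 (-1.64).

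**Figure D4:**
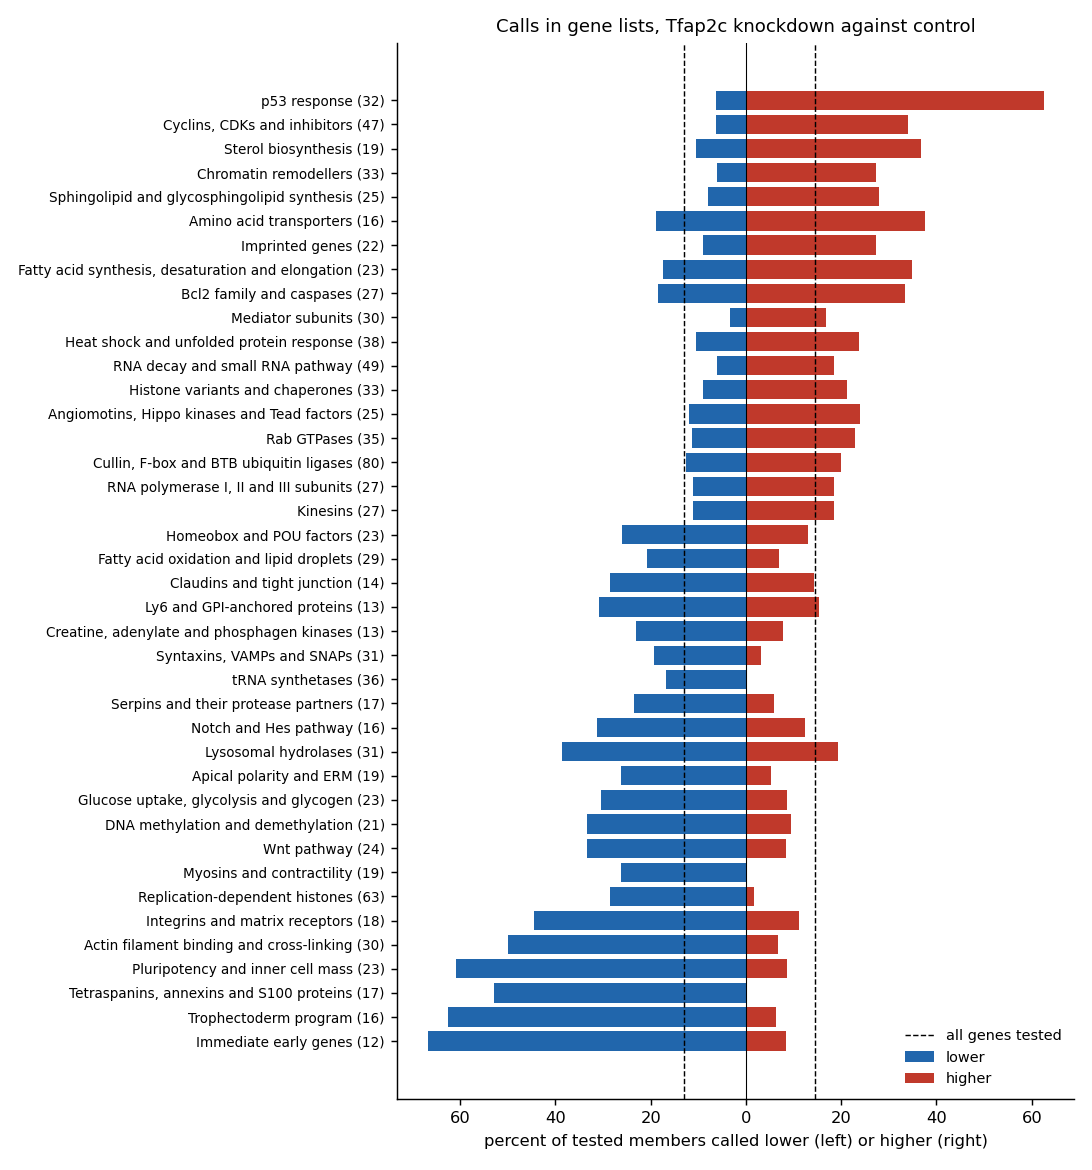
Percent of tested members called lower (blue, left) or higher (red, right) in the Tfap2c knockdown for 40 gene lists with at least 12 tested members and wide differences between both shares, number tested in parentheses, with dashed lines at the shares over all genes tested (12.9% lower, 14.4% higher). The p53 response has the widest bar to the right (62.5%), and immediate early genes (66.7%), the trophectoderm program (62.5%) and pluripotency (60.9%) those farthest to the left.

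Many genes that p53 is known to activate, among them genes that halt the cycle or start cell death, rose in the knockdown. Of 32 tested members of the p53 response list 20 were higher (62.5%, against 14.4% of all genes) and 2 lower, with a median log2 fold change of 0.67, and 16 of the 20 calls held. Cdkn1a, the CDK inhibitor p21, stood at 9.60 and 7.73 units in control and at 29.8 and 29.9 in the knockdown (1.68, adjusted p = 0.00020). Bbc3, which encodes the BH3-only protein Puma, stood at 3.06 and 6.78 units and at 16.5 and 16.7 (1.65, adjusted p = 0.0013). Trp53inp1, an amplifier of p53 activity, went from 38.7 and 36.0 units to 105 and 102 (1.45, adjusted p = 9.9e-06). Non-overlapping libraries were a condition for naming these 3. Ccng1, a cyclin G, went from 5.22 and 5.57 units to 14 and 15.5 (1.3), Plk2, a polo-like kinase, from 5.26 and 5.68 to 13.7 in both (1.18), and Apaf1, which forms the apoptosome, from 23.2 and 23.6 to 47.3 and 44.8 (0.95). Perp, a p53 target that is also a desmosomal protein, is a member chosen for mention after its values were seen: it fell from 8.17 and 7.96 units to 1.84 and 1.10 (-1.89, adjusted p = 0.00015).

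**Figure D5:**
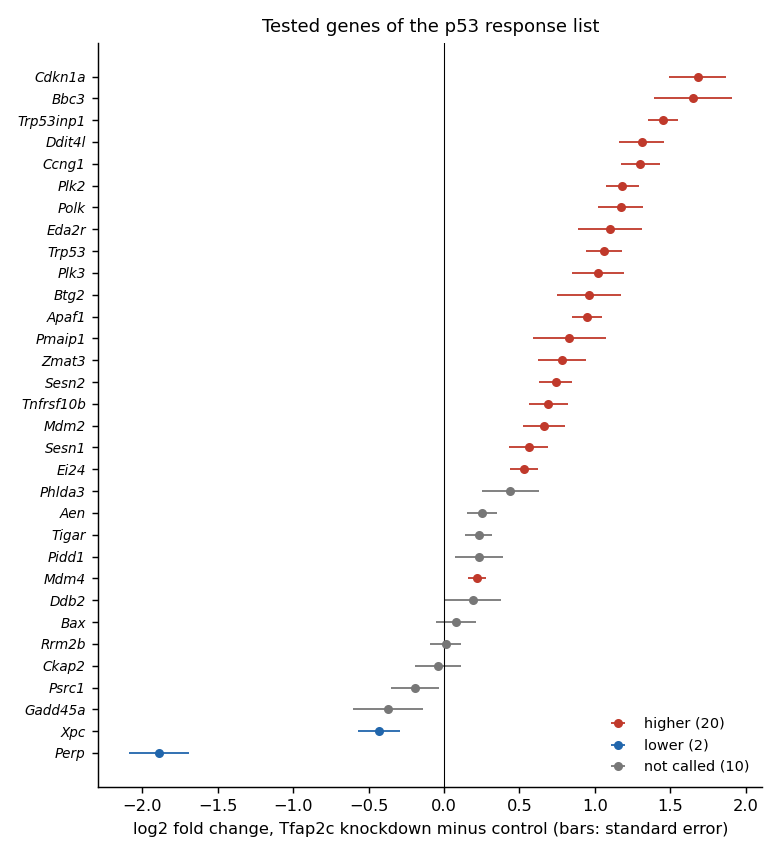
Log2 fold change of 32 tested genes of the p53 response list, Tfap2c knockdown minus control (x axis; points are estimates from 2 libraries a group and bars are standard errors). The 20 red genes were called higher, the 2 blue ones lower and the 10 grey ones were not called, with Cdkn1a at the top (1.68) and Perp at the bottom (-1.89).

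The p53 genes named above as risen are given here in the other groups of the series, which share the control libraries. In the Klf5 knockdown Cdkn1a averaged 3.46 log2 units, next to 3.27 in control and 4.95 in the Tfap2c knockdown, and Trp53inp1 averaged 5.26 in both the Klf5 knockdown and control. In the knockouts Arpc1bE_CdxE1_KO and CdxE2_KO, Bbc3 averaged 4.46 and 4.55, next to 2.49 in control and 4.14 in the Tfap2c knockdown. Plk2 averaged 3.98 and 4.01 in these knockouts, 2.69 in control and 3.88 in the Tfap2c knockdown. Cdkn1a averaged 4.67 and 4.12 in these knockouts and Trp53inp1 6.38 and 6.21. Ccng1 averaged 4.38 and 3.71 there, next to 2.68 in control, and Apaf1 5.29 and 5.37, next to 4.61. All of these genes thus averaged above control in both motif knockouts. In the Klf5 knockdown Bbc3 averaged 2.87, Plk2 2.98, Ccng1 2.64 and Apaf1 4.74. The motif knockout libraries have larger sums of units than the others, and their part in these levels was not tested.

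The list of Bcl2 proteins and caspases, which shares Bbc3 and Apaf1 with the p53 list, had 9 of 27 higher and 5 lower. Mcl1, an anti-apoptotic member, fell from 167 and 155 units to 116 and 115 (-0.48), and Birc3, an inhibitor of apoptosis, from 12.4 and 13.1 to 4.55 and 4.02 (-1.38). Of 47 tested cyclins, CDKs and inhibitors 16 were higher (34.0%) and 3 lower, with a median of 0.16, and 9 of the 16 calls held. Ccne1, a cyclin of the entry into S phase, rose from 130 and 121 units to 191 and 190 (0.60), and Cdc25a, the phosphatase that activates CDKs, fell from 37.2 and 36.7 to 24.2 and 20.0 (-0.72). DNA replication had 13 of 51 lower and 8 higher, with a median of 0.02. Mcm10, which helps load the replisome, fell from 113 and 114 units to 58.0 and 58.5 (-0.95), and Cdc7, the kinase that fires origins, rose from 10.0 and 8.79 to 18.5 and 18.6 (0.91). Of 45 tested kinetochore and spindle genes 7 were lower and 3 higher, and the median was -0.02. Cenpe, the kinetochore kinesin, stood out from it, going from 174 and 172 units to 42.8 and 44.0 (-1.97, adjusted p = 1.2e-07).

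Replication-dependent histone genes fell in number but by small amounts. Of 63 tested members 18 were lower (28.6%) and 1 higher, with a median of -0.34, but 6 of the 18 calls held. Hist1h1d went from 343 and 333 units to 220 and 239 (-0.56) and Hist1h4i from 78.0 and 73.8 to 45.4 and 53.2 (-0.62). These genes are near-identical copies, so the split of reads between them is uncertain.

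Among chromatin genes Rest, the repressor of neuronal genes, had the lowest p in its list of acetylation and deacetylation factors: it went from 490 and 489 units to 182 and 185 (-1.41, adjusted p = 1.6e-06). That list had 5 of 30 lower and 2 higher. Of 33 tested Polycomb and trithorax genes 6 were higher and 5 lower. Ezh2, the H3K27 methyltransferase, fell from 74.1 units in both control libraries to 35.6 and 36.1 (-1.03, adjusted p = 9.5e-06), while its paralog Ezh1 rose from 15.6 and 18.9 to 29.5 and 27.9 (0.71). Of 21 tested genes of DNA methylation and demethylation 7 were lower and 2 higher, with 4 of the 7 calls holding. Dnmt3b, a de novo methyltransferase, went from 9.86 and 10.2 units to 2.23 and 2.60 (-1.7), and Trim28, a corepressor that guards imprints, from 176 and 167 to 108 and 105 (-0.68). Chromatin remodellers rose more often than they fell, with 9 of 33 higher and 2 lower. Baz2b went from 18 and 20.2 units to 44.8 and 45.4 (1.20) and Smarcd2, a BAF subunit, from 29.3 and 26.8 to 56.4 and 60.8 (1.04).

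Several large groups of housekeeping genes stayed below the background. Cytosolic ribosomal proteins had 1 of 86 higher and 1 lower, translation factors 3 of 62 each way, and proteasome subunits 4 of 44 higher and 1 lower. Small nucleolar and Cajal body RNAs had 4 of 90 each way, and the Lsm and Sm ring proteins 1 of 26 each way. For oocyte and maternal effect genes the count was 1 of 29 each way, Uchl1 higher and Dppa3 lower. In these lists the share called in either direction was under 14.4%, the share of all tested genes called higher.

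Genes were also ranked by their change in units rather than by fold. This order compares genes with each other and so depends on the kind of unit, which is not known. The largest losses named in this way were those of Tpr, a nuclear pore basket protein, from 1540 and 1580 units to 810 and 741 (log2 fold change -1.01), and Nudt4, a diphosphoinositol polyphosphate phosphatase, from 1390 and 1380 to 652 and 635 (-1.10, adjusted p = 4.2e-06). Hsp90aa1, the inducible cytosolic chaperone, went from 1630 and 1710 units to 1070 and 1080 (-0.64). Both metallothioneins, which bind zinc and copper, were in this set: Mt1 went from 694 and 619 units to 261 and 246 (-1.37) and Mt2 from 711 and 549 to 295 and 281 (-1.11). Odc1, the first enzyme of polyamine synthesis, went from 2130 and 2200 units to 1690 and 1740 (-0.33, adjusted p = 0.011). Its call was lost in each of the 4 fits without a library, with an adjusted p of 0.090 and 0.057 without Tfap2c knockdown replicates 1 and 2 and of 0.052 and 0.076 without control replicates 1 and 2.

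In the same ranking, with the same limit, the largest gain named was that of Pank3, a pantothenate kinase of coenzyme A synthesis, from 2160 and 2000 units to 3090 and 3110 (0.58, adjusted p = 0.00066). Atp7a, the copper-transporting ATPase, rose from 108 and 123 units to 361 and 282 (1.46, adjusted p = 6.6e-05). Snrpc, the U1 snRNP protein U1-C, rose from 405 and 424 units to 598 and 586 (0.51), and Rprd1b, which binds the tail of RNA polymerase II, from 397 and 451 to 595 and 599 (0.49). All 4 were named on the condition of non-overlapping groups. Sbno1, a homologue of the fly gene strawberry notch, went from 592 and 662 units to 794 and 821 (0.37), but was not called without Tfap2c knockdown replicate 2 (adjusted p = 0.055) or control replicate 1 (adjusted p = 0.070). Malat1, a nuclear long noncoding RNA, stood at 2210 and 2410 units in control and at 2750 and 2980 in the knockdown (0.31, adjusted p = 0.026), and its adjusted p was 0.066 and 0.18 without Tfap2c knockdown replicates 1 and 2 and 0.18 and 0.051 without control replicates 1 and 2. Srp54c, a copy of the signal recognition particle gene, was listed at 0 in both knockdown libraries and at 9.85 and 3.96 units in control, which did not pass (adjusted p = 0.072), and its near-identical copies make its value uncertain.

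The Klf5 knockdown offers a second group of treated embryos of the same stage, and the Tfap2c knockdown was tested against it directly. Of 10228 genes 1736 were higher (17.0%) and 1158 lower (11.3%) in the Tfap2c than in the Klf5 knockdown, but with libraries centred on their medians 1259 were higher and 1556 lower, so that the higher share of the calls went from 60% to 44.7%. The count of calls, 2894, was 1849 and 1890 without Klf5 knockdown replicates 1 and 2, and 1688 and 1759 without Tfap2c knockdown replicates 1 and 2. The 11 largest falls and the 10 rises plotted by library were called in the same direction against the Klf5 knockdown. Aaed1, described with the rises but not plotted, differed by 0.65 and was not called (adjusted p = 0.18). Both comparisons use the same Tfap2c knockdown libraries, in which these genes were chosen as extreme, so part of this agreement is built in. For Sox21 the difference between the knockdowns was -3.52 (adjusted p = 3.0e-06), for Smpdl3a -4.42 (7.4e-07), for Tfeb -3.29 (3.1e-07) and for Arhgdia -2.92 (4.9e-06), all on the log2 scale. Lasp1 differed less, by -1.20 (adjusted p = 0.00071), with averages of 4.03 log2 units in the Klf5 knockdown, 5.85 in control and 2.84 in the Tfap2c knockdown.

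Some genes of the actin and surface lists were not called lower than in the Klf5 knockdown. Actn1 averaged 3.18 log2 units in the Klf5 knockdown and was higher in the Tfap2c knockdown by 0.80 (adjusted p = 0.00018). Cdc42ep4 averaged 2.11 there and differed by -0.21 (adjusted p = 0.23), Pard6b 1.59 and 0.10 (0.63), and S100a11 2.02 and -0.49 (0.23). A miss of the threshold does not show that the levels are equal. Steap3, an endosomal ferrireductase that fell from 102 and 95.3 units to 35.1 and 31.7 against control (-1.54), averaged 5.12 in the Klf5 knockdown and differed by -0.02 (0.91). The other way round, Amotl1 was higher in the Tfap2c than in the Klf5 knockdown by 2.45 (adjusted p = 1.4e-05), Il17rd by 2.09 (2.1e-06) and Trp53inp1 by 1.45 (1.3e-05). Bag3, a cochaperone of Hsp70, rose against control from 20.3 and 22.3 units to 35.0 and 37.5 (0.74) and stood 1.90 above its level in the Klf5 knockdown (2.4e-06). It averaged 3.32 log2 units in the Klf5 knockdown, 4.48 in control and 5.22 in the Tfap2c knockdown. Lmod1, an actin nucleator related to tropomodulin, rose from 13.2 and 14.6 units to 28.5 and 34.1 (1.11) and stood 2.11 above (1.4e-05). Its averages in the same order were 2.89, 3.9 and 5.01. Both genes thus averaged below control in the Klf5 knockdown, which is part of these differences. Sox21, Smpdl3a, Tfeb, Amotl1, Il17rd, Bag3 and Lmod1 were among the genes named by this difference. Its size for them is therefore no added support. Klf5 itself fell in the Tfap2c knockdown, from 146 and 139 units to 38.9 and 42.7 (-1.78, adjusted p = 2.9e-06).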

How the data were processed

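Total RNA was sequenced from 8-cell mouse embryos freed of zona and polar bodies, with random-primed libraries depleted of ribosomal cDNA, per the labels' protocols. The authors deposited log2 values, 1 per gene and library, in 3 tables. Exact zeros put the added constant at 1, and the kind of abundance is not given in the sources used here. The submitters' processing notes name the genome mm10 and, in no stated order, StringTie 1.3.4, Cufflinks, HISAT2 2.1.0 and SAMtools 1.7. Depth is unknown, so the number of libraries limits precision.

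The control stands in another table than the Tfap2c knockdown, and the 2 tables were joined by gene symbol, and whether the tables were scaled together is not given in the sources used here. Genes reaching 1 linear unit in 2 or more of the 4 libraries were fitted on the deposited log2 values of all 10 libraries in 5 groups with limma 3.58.1 (trended eBayes in R 4.3.3), two-sided, and a gene was called when its p, adjusted by Benjamini-Hochberg, fell under 0.05. P-values in the text are from this fit, except those given for fits without a library, which repeat it on the remaining 9. The contrast with the Klf5 knockdown comes from the same fit. The fit was tested on simulated data for the Tfap2c knockdown: of 100 genes each it recovered 96% at a log2 change of 1 and 100% at 2. Of its calls 2.97% were false. The simulation held 10228 genes, changed only genes with a mean above 1 log2 unit, and drew the noise of each library independently. Its changed genes were a far smaller share than the 27.3% called in the data. Its rates therefore cannot be carried over to the calls given here.

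The members and the 87 gene lists, which overlap, were chosen with earlier results of these data known, so list counts are descriptions. The number of calls that held is given for some lists only. Where it is not given, the calls of a list may be less firm. The rule named AP-2 factors and coregulators, genes listed at 0 in 1 group, and called genes with non-overlapping groups. Among the last are the 12 largest rises and falls and the 6 largest gains and losses in units. The 6 largest differences each way between the knockdowns also belong there. These had a higher mean of at least 10 units. Up to 4 called members with the lowest p per list were added whatever their mean. Non-overlap of genes named in these ways is therefore no added support. Cdx2, Krt8, Perp, Klf5, Klf17 and Fgf4 were added after their values were seen. A few genes named by it, and 1 list, are not reported here. Positions are from GENCODE M21.

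Alternatives were the filter, the added constant, 3 scalings, fewer libraries in the fit, no trend, a replicate block and leaving out each library. Same-numbered libraries did not deviate together (r = 0.019 between control and Tfap2c knockdown over 10228 genes), so numbers were not taken to pair libraries.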

Additional observations from a re-analysis of the deposited data

How the results depend on the processing

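The count of genes called was within 1.5 times of 2793 under each alternative other than leaving out a library, where it ran from 1644 to 1824, with 752 to 898 higher and 885 to 942 lower. Against the Klf5 knockdown leaving out a library gave 1688 to 1890 calls, 965 to 1110 higher and 723 to 780 lower. These fits have fewer samples and leave 1 group with a single library, assumed to vary like the other groups. An added constant of 0.1 in place of 1 gave 890 genes called and at least 2-fold changed against control and 853 against the Klf5 knockdown, since it widens the fold changes of low genes. With the replicate block 2675 genes were called against control (1398 higher, 1277 lower) and 2769 against the Klf5 knockdown, and 1 of 335 named calls was lost. The correlations between same-numbered libraries, -0.08 to 0.048 over pairs of groups, give no sign of pairing.

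Of 335 named genes called, 284 kept the call without each of the 4 libraries and 322 under each of the other alternatives that gave a value, and 0 changed direction. Of named genes not called, Npm1 turned to -0.20 with quantile normalization and ran from -0.01 to 0.08 on leaving out a library, and Tfap2e from -0.02 to 0.40. With no count of reads, what depth limits cannot be stated. Values under 1 unit, such as those of Smpdl3a and Ly6a in the knockdown, rest on the added constant.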

Other observations

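Called genes often had a called neighbour on the chromosome. Of 1275 lower genes with a position 32.5% had a lower gene as the nearest tested gene on either side, against 22.8% of genes that were not called, and of 1403 higher genes 37.4% had a higher neighbour, against 24.9%. Chromosome 7 had 10.3% of its tested genes higher and 16.1% lower, and the X chromosome 17.9% higher and 11% lower, next to 14.4% and 12.9% overall. Of 67 tested lincRNA genes 12 were higher and 4 lower. These are descriptions of the tested genes, and neighbours are not independent of each other.

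Among imprinted genes 6 of 22 tested were higher and 2 lower, and 4 of the 6 calls held in the fits without each library. Plagl1, a zinc finger factor expressed from the paternal allele, went from 0.621 and 0.504 units in control to 3.05 and 3.11 in the knockdown (log2 fold change 1.39, adjusted p = 0.0015 by limma), and Sfmbt2, a placental Polycomb protein, from 4.06 and 3.26 to 1.43 and 1.03 (-1.07). Amino acid transporters had 6 of 16 higher and 3 lower, with Slc7a6 rising from 27.6 and 25.2 units to 42.8 and 41.6 (0.66). Of 219 tested numbered zinc finger genes 40 were higher and 29 lower. Zfp109 went from 7.28 and 8.64 units to 0.760 and 0.393 (-2.51), and Zfp51 from 26.6 and 30.0 to 65.9 and 60 (1.13). Srsf9, a splicing factor, went from 129 and 121 units to 49.4 and 53.3 (-1.27), while of 42 tested SR and hnRNP regulators 6 were higher and 5 lower.

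Genes of the 2-cell-stage families, which have near-identical copies, were not on 1 side: 3 of 21 tested were higher and 4 lower. Pramel1 went from 7.80 and 7.05 units to 2.12 and 2.63 (-1.32). The 14 markers of the 2-cell embryo added up to 120 and 108 units in control and 130 and 125 in the knockdown.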
